A study of Drosophila melanogaster with 6 samples.

Results

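The genes kra, heph, rig, PCID2 and Dbp73D, whose products bind RNA or steer translation, were followed through 2-colour spotted cDNA arrays of Drosophila melanogaster material exposed to methotrexate, an antifolate drug that blocks the supply of reduced folates for nucleotide synthesis. The 5 genes are among 7350 named on the arrays. They were listed by name, found on each array design by Entrez gene number, and selected on earlier readings of these same ratios, so their ratios in the contrast that chose them are described here and not tested. The array design used for ovaries carried 4 of them (kra, heph, rig and PCID2) among 2377 genes, and the design used for S3 cells carried 3 (kra, PCID2 and Dbp73D) among 6795 genes. Each had 2 neighbouring spots on every design that carried it. On the S3 design, 2 spots bear a synonym of heph without its Entrez number and were not taken as heph. In ovary, kra, heph and rig were positive at every spot on both arrays, with mean log2 ratios of 2.42, 1.88 and 1.87, and PCID2 was negative at every spot, with a mean of -0.97. In S3 cells kra and PCID2 averaged 0.23 and 0.27, within the spread between arrays, and Dbp73D averaged -1.53 from spots that disagreed.

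S3 cells, a cultured Drosophila line, were given methotrexate at 5.2e-08 M for 4 days or left untreated, and flies were given 5 ppm for 5 days or left untreated before their ovaries were taken. The labels used here give no strain, genotype or fly age. Every array set treated RNA against untreated RNA of the same material, with 4 arrays for S3 and 2 for ovary. Per the labels, the dye on treated S3 RNA was Cy3, except on array 2, where it was Cy5, and the dye on treated ovary RNA was Cy5 on both arrays although the series text speaks of swapped dyes. Dye and treatment effects of a gene on the ovary arrays, therefore, cannot be told apart. The same holds for S3 means and tests that leave out array 2, since treated S3 RNA was then in Cy3 throughout. A comparison of ovary with such S3 means also sets treated RNA in Cy5 against treated RNA in Cy3.

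No source used here gives the numerator of the deposited ratios, so values are called positive or negative, which says nothing of up or down under the drug. The base of the logarithm is not given either and was taken as 2. Per the labels, treated RNA was in channel 2 on every S3 array, in channel 1 on ovary array 1 and in channel 2 on ovary array 2. If the numerator went by channel, the ovary arrays run opposite ways and S3 array 2 runs with the other S3 arrays. If it went by dye, the ovary arrays run the same way and S3 array 2 runs against the others. If treated RNA was set over untreated on every array, or the reverse, all arrays run the same way. Ovary means below take both arrays as deposited. S3 arrays 1, 3 and 4 run the same way whatever the numerator was, and S3 means below are over these 3 arrays; array 2 is printed with its sign as deposited and enters no S3 mean unless stated. The correlation across genes (genes are no replicates of one another) was r = 0.753 between the ovary arrays and between 0.0542 and 0.205 among S3 arrays 1, 3 and 4. A ratio holds no expression level, so whether the tissue or cells carry their defining markers could not be examined. The labels do not say that arrays came from separate cultures or flies, so SDs and p-values reflect array-to-array spread, possibly technical. For the ovary p-values this is a spread common to all genes and not each gene's own. The number of arrays limits every value.

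The products of kra, heph, rig and PCID2 act at different steps of an mRNA's life. Rig and its partners in the SMN complex assemble the small nuclear ribonucleoproteins that splice transcripts, polypyrimidine tract-binding proteins such as Heph choose splice sites and repress bound mRNAs, TREX-2 proteins such as PCID2 carry mRNA to the nuclear pore, and Kra acts where ribosomes start. In the ovary such regulators matter because the egg is loaded with mRNAs that are transported, kept silent and translated later.

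kra encodes an eIF5-mimic protein with a W2 domain that binds initiation factor eIF2 and restrains translation. Its 2 spots read 2.75 and 2.86 (log2 ratio, each array centred on its median) on ovary array 1, and 2.07 and 1.98 on ovary array 2. Both spots were thus strongly positive on both arrays, and array 1 lay above array 2 at either spot. The mean over arrays was 2.42 ± 0.55 (SD, n = 2), a 5.34-fold ratio if the base is 2. Of the 2377 ovary genes none had a larger mean, with kra ranked 1 on array 1 and 3 on array 2. Whole ovaries hold several cell types, and a shift in the share of one of them cannot be told apart here from a change of RNA per cell.

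heph encodes the fly polypyrimidine tract-binding protein, a splicing regulator that also binds and represses oskar mRNA in the female germline. The ovary spots read 2.01 and 2.19 on array 1 and 1.78 and 1.54 on array 2. All 4 readings were positive, and they fell within a narrower band than those of kra. The mean was 1.88 ± 0.31 (SD, n = 2), the 7th largest in rank on the positive side of the 2377 genes.

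rig encodes a WD-repeat protein, the homologue of Gemin5, which recognises small nuclear RNAs for the SMN complex and is also known as a partner of the ecdysone receptor. Its ovary spots read 1.64 and 1.76 on array 1 and 2.07 and 1.99 on array 2. Unlike kra and heph, rig was higher on array 2 than on array 1. Its mean of 1.87 ± 0.24 (SD, n = 2) ranked 8 on the positive side, next to heph. The means of heph and rig differed by less than the SD of either, whereas kra lay above both by about its own SD.

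PCID2 encodes a TREX-2 subunit that couples transcription to mRNA export. It stood on the other side of 0 in ovary, with spots at -0.76 and -0.68 on array 1 and at -1.47 and -0.96 on array 2. Every spot was negative, but the neighbouring spots of array 2 lay 0.51 apart, which 16.6% of the 2833 duplicate pairs on that array exceeded. The mean was -0.97 ± 0.35 (SD, n = 2), the 88th from the bottom of 2377 genes. On array 1 alone it was an ordinary gene, 549th from the bottom, and on array 2 it was the 32nd.

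**Figure D1:**
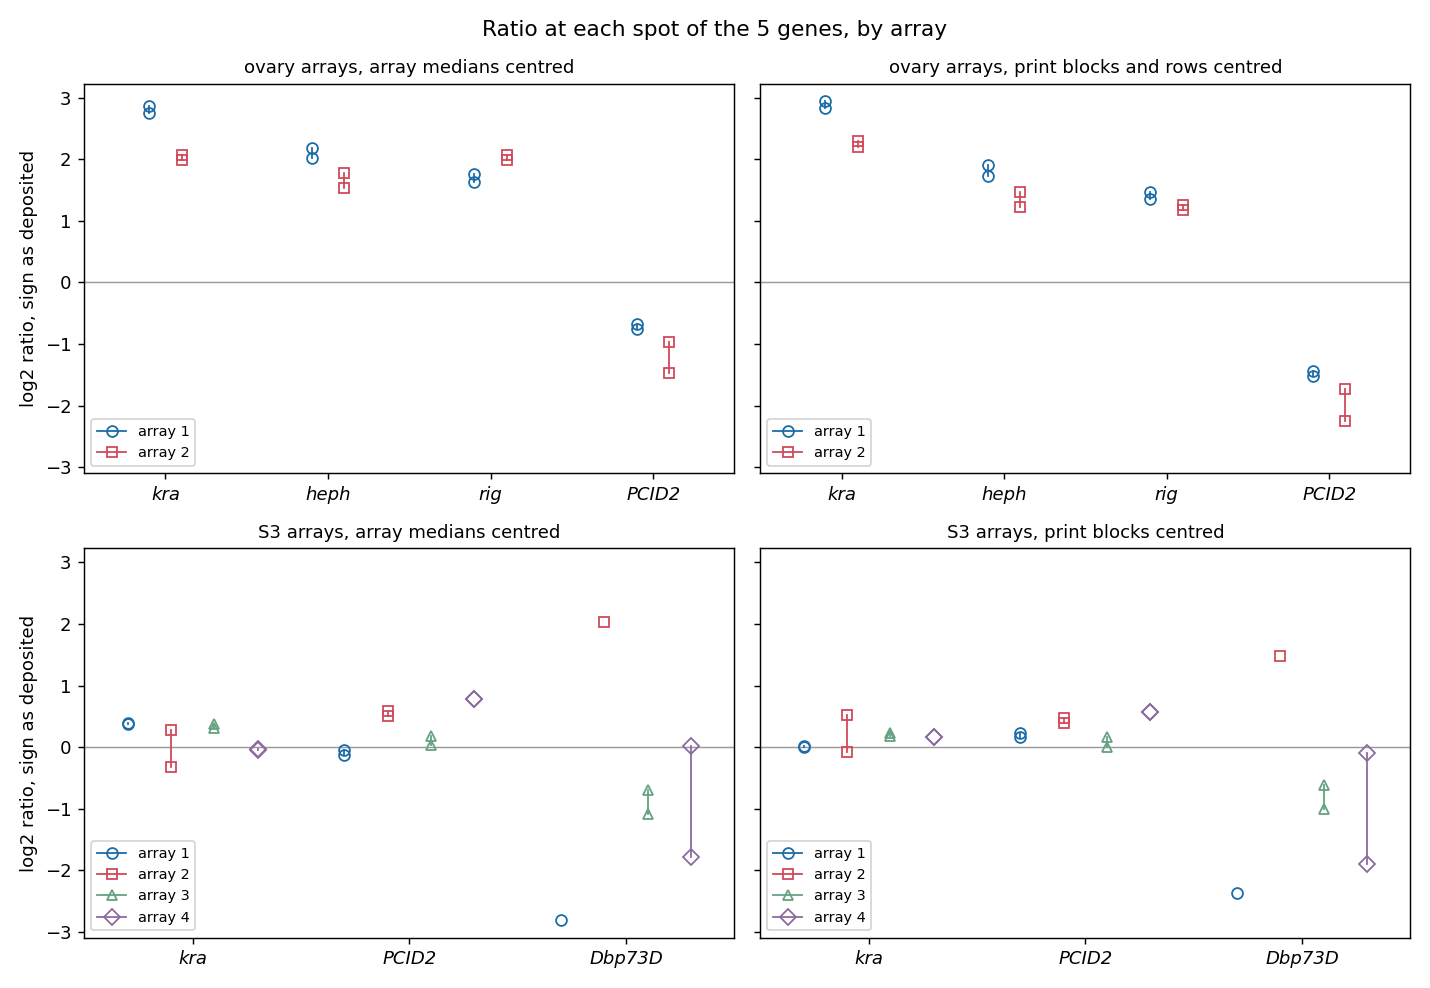
Log2 ratio at each spot (open symbols, sign as deposited) of the genes on the ovary arrays (upper panels) and S3 arrays (lower panels), with array medians centred (left) or print layout centred (right); a line joins the 2 spots of a gene on an array. The ovary spots of kra, heph and rig lie above 1 in both panels and those of PCID2 below 0, while the S3 spots of kra and PCID2 stay between -0.32 and 0.79 and those of Dbp73D spread over both sides.

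Duplicate spots of these genes mostly read alike on the ovary arrays. The 2 spots of kra differed by 0.10 on array 1 and 0.09 on array 2, against a median difference of 0.23 and 0.22 over all 2833 pairs. The spots of rig differed by 0.12 and 0.08, and those of heph by 0.17 and 0.24. Duplicate spots sit next to each other on the slide and share their local conditions, so this closeness does not measure how well a ratio repeats.

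The ratios of the ovary arrays followed the print layout, and this touched the 4 genes unequally. A print row, the 24 spots laid side by side in a print block, accounted, pooled over blocks, for 20.8% of the spot variance of array 1 and 15.9% of that of array 2. The other 22 spots in the row of PCID2 had a median of 0.99 on array 1 and 0.80 on array 2, and all 22 lay above both PCID2 spots on each array. PCID2 was therefore negative in a positive neighbourhood. In the row of heph the other spots had medians of 0.81 and 0.44, so heph was positive among positive spots. The row of kra was near 0, with medians of 0.03 and 0.14, and no other spot in it reached kra on either array. The row of rig had medians of -0.28 on array 1 and 0.40 on array 2, the same order of arrays as rig itself.

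**Figure D2:**
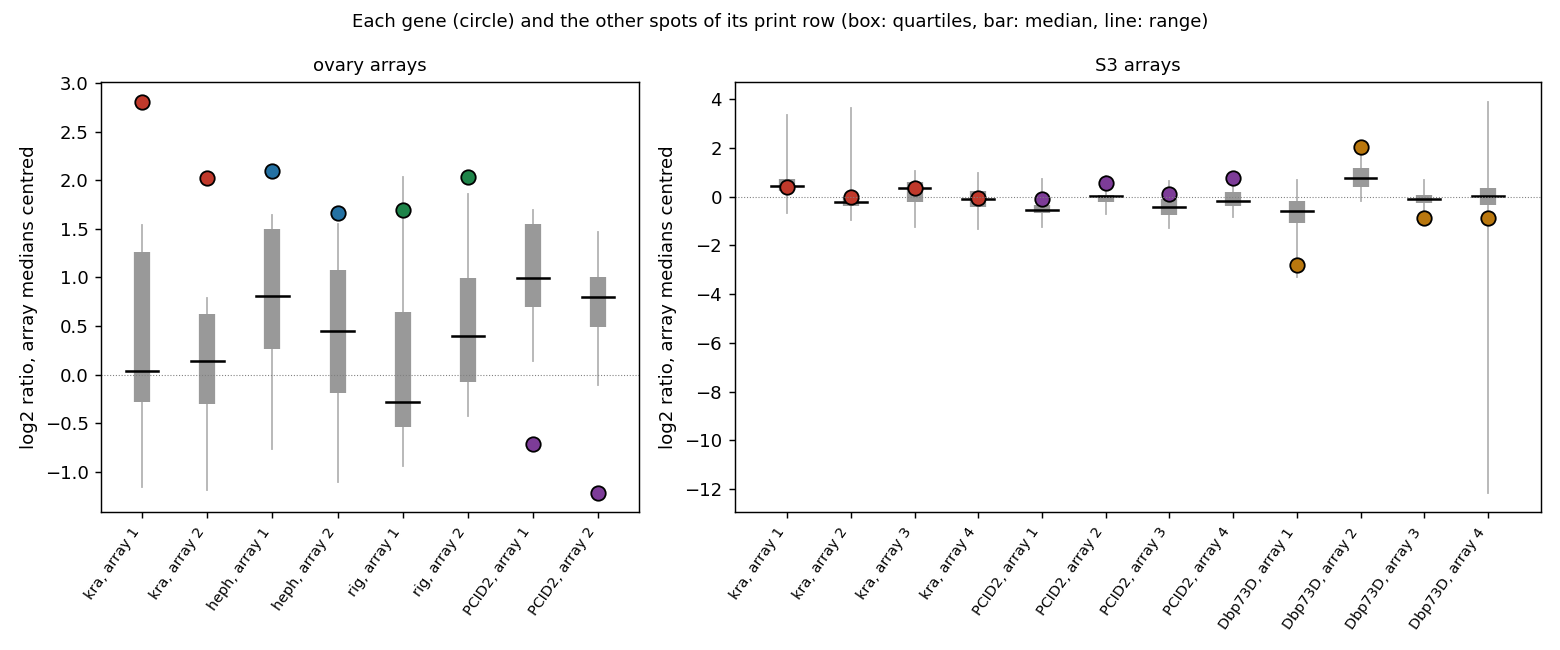
Value of each gene on each array (circles, mean of its 2 spots where both were read) beside the other spots of its print row (grey box for the quartiles, black bar for the median, thin line for the range), in log2 ratio with array medians centred. In ovary kra lies 2.77 and 1.89 above its row median and PCID2 1.71 and 2.01 below it, whereas in S3 cells kra lies at most 0.21 from its row median.

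With print blocks and then rows centred on their medians, kra was at 2.89 on array 1 and 2.25 on array 2, a mean of 2.57 ± 0.45 (SD, n = 2), which ranked 1 on both arrays. PCID2 was at -1.48 and -1.99, a mean of -1.74 ± 0.36 (SD, n = 2), the 2nd lowest in rank of the 2377 genes. heph was at 1.81 and 1.34, with a mean of 1.58 ± 0.33 (SD, n = 2) and rank 17. rig was at 1.42 and 1.22, with a mean of 1.32 ± 0.14 (SD, n = 2) and rank 55. Centring blocks and pooled rows thus kept the sign of the 4 genes, multiplied the mean of PCID2 by 1.80, left kra nearly in place and brought heph and rig nearer 0. With blocks alone centred, heph was at 2.05 and rig at 1.87, so the move of these 2 genes came with the rows. The arrays of rig, apart in the opposite order before, then had array 1 above array 2 as for kra and heph.

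**Figure D3:**
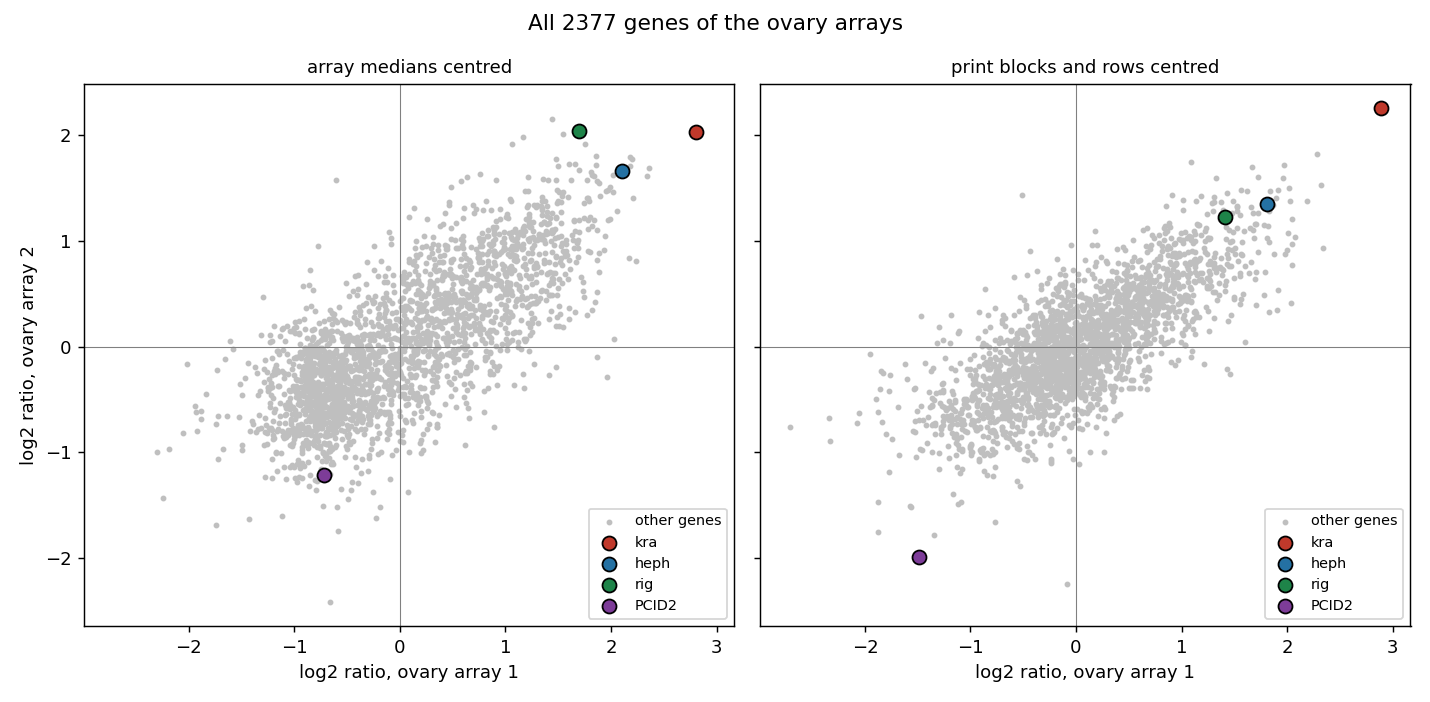
Log2 ratio of every gene on ovary array 1 (horizontal) and array 2 (vertical), with array medians centred (left) and print blocks and rows centred (right); coloured points are kra, heph, rig and PCID2. kra sits at the upper right of both clouds, and PCID2 moves from -0.72 and -1.22 on the left to -1.48 and -1.99 on the right, near the lower end of array 2.

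On the S3 arrays kra could be tested, since it was chosen for its ovary values. Its spots read 0.38 and 0.40 on array 1, 0.37 and 0.31 on array 3, and -0.04 and -0.05 on array 4. On array 2 the spots read 0.28 and -0.32, on opposite sides of 0. The mean over arrays 1, 3 and 4 was 0.23 ± 0.24 (SD, n = 3; limma adjusted p = 0.827 over 6772 genes), with a 95% interval of -0.32 to 0.78. It was positive on 2 of these 3 arrays. Of the 6772 genes, 0.0148% were called in this comparison, which is 1 gene, CG15347, named for its call, at -2.60 ± 0.44 (SD, n = 3; limma adjusted p = 0.0101).

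The S3 ratio of kra was also close to that of its surroundings on the slide. Its print block had a median of 0.39 on array 1 and 0.13 on array 3, near or below the gene's own values of 0.39 and 0.34. With print blocks centred, kra was at 0.00, 0.23, 0.21 and 0.17 on arrays 1 to 4. All 4 were then above 0 in the deposited sign, and the mean over arrays 1, 3 and 4 was 0.13 ± 0.11 (SD, n = 3), at a limma adjusted p of 0.868.

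PCID2 in S3 cells read -0.13 and -0.05 on array 1, 0.59 and 0.51 on array 2, 0.19 and 0.04 on array 3, and 0.79 and 0.77 on array 4. Its duplicates read alike on each array, and the arrays differed much more than the spots did. The mean over arrays 1, 3 and 4 was 0.27 ± 0.46 (SD, n = 3), smaller than its SD. With print blocks centred the arrays stood at 0.20, 0.44, 0.08 and 0.57, with a mean over arrays 1, 3 and 4 of 0.28 ± 0.25 (SD, n = 3). Array 3 then read lowest in place of array 1, array 4 stayed highest, and every array was above 0. The contrast that put PCID2 on the list is not stated, so no p-value is given for it on either design.

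Dbp73D encodes a DEAD-box RNA helicase of the family of human DDX51, whose yeast relative acts in the making of the large ribosomal subunit. The first of its spots read -2.81, 2.03, -1.08 and -1.79 on S3 arrays 1 to 4. The second had no value on arrays 1 and 2 and read -0.70 and 0.02 on arrays 3 and 4. On array 4 the 2 spots were 1.81 apart, a gap that 2.76% of 7393 duplicate pairs exceeded. The extreme readings of arrays 1 and 2 thus rest on 1 spot each, and where the second spot was read it lay nearer 0.

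The gene value of Dbp73D, the mean of the spots read, was -2.81, 2.03, -0.89 and -0.89 on arrays 1 to 4. Array 2, with the other dye assignment, was the lone positive one. Over arrays 1, 3 and 4 the mean was -1.53 ± 1.11 (SD, n = 3), the 11th from the bottom of 6772 genes. Array 1 alone set much of this: without it the mean was -0.89. From the first spot the mean was -1.89 ± 0.87 (SD, n = 3), and from the second, read on arrays 3 and 4, it was -0.34. With array 2 included as deposited the mean was -0.64 ± 1.99 (SD, n = 4), and with its sign turned -1.65 ± 0.94 (SD, n = 4). The reading of 1 sign, which is not settled, therefore changed the mean of Dbp73D 2.58-fold on the log scale.

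Dbp73D also lay in a tilted part of the slide. The other spots of its print row had medians of -0.60, 0.79, -0.09 and 0.04 on arrays 1 to 4, so that arrays 1 and 2 leaned the same way in the row as in the gene. With print blocks centred, Dbp73D was at -2.37, 1.48, -0.81 and -1.00, and the mean over arrays 1, 3 and 4 was -1.39 ± 0.85 (SD, n = 3). Each array kept its sign, and arrays 1 and 2 moved toward 0.

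kra and PCID2 are the members carried by both designs. The ovary values of kra, 2.81 and 2.03, lay above the S3 range of -0.04 to 0.39 on arrays 1, 3 and 4 without overlap, as did those of 23.6% of the 1816 genes with values on all these arrays. With print layout centred they were 2.89 and 2.25 against 0.00 to 0.21, again without overlap (22.5% of genes). The ovary values of PCID2, -0.72 and -1.22, lay below its S3 range of -0.09 to 0.78, as did those of 24.3% of the 1816 genes. With print layout centred they were -1.48 and -1.99 against 0.08 to 0.57 (below without overlap in 20.4% of genes). In deposited sign, ovary and S3 then lay on opposite sides of 0. Whether a positive ovary ratio and a positive S3 ratio mean the same direction hangs on the numerator, which is not known. They do if treated RNA was set over untreated on every array, or the reverse. If the numerator went by dye, both ovary arrays run against S3 arrays 1, 3 and 4, where treated RNA was in Cy3. If it went by channel, ovary array 1 runs against these S3 arrays and ovary array 2 with them. With the ratios of both ovary arrays turned, as by dye, kra would be at -2.42 against 0.23 and PCID2 at 0.97 against 0.27. The size of the gap then holds for kra and shrinks for PCID2, whose ovary and S3 means then share a sign. With ovary array 2 alone turned, as by channel, the ovary means would be 0.39 for kra and 0.25 for PCID2. By channel these means run in the direction of ovary array 1, against S3. These differences include the contrast that chose kra and were not tested. The dye on treated RNA also differed between the ovary arrays and these S3 arrays, so a dye effect cannot be separated from them.

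Genes whose array values came nearest to each member, by Euclidean distance over the arrays of a design, were looked up in all genes of that design. On the ovary arrays kra stood somewhat alone, with Vajk3 at a distance of 0.57 (2.36 and 1.68 on arrays 1 and 2), CG9853 at 0.62 and simj at 0.66 as its nearest. heph had closer company in Mink at 0.09, Tfb1 at 0.09 and simj at 0.14. rig was nearest to CG7101 at 0.13, Snx21 at 0.16 and CG15514 at 0.28, and PCID2 to CG5421 at 0.04, CG15109 at 0.05 and CdGAPr at 0.05. With print blocks and rows centred other genes came nearest, CG11630 for kra (0.74), Pat1 for heph (0.05), Dus2 for rig (0.06) and Arc1 for PCID2 (0.25).

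Over the 4 S3 arrays, kra lay nearest to CG18745 (0.12), MRG15 (0.12) and CG2247 (0.13). PCID2 lay nearest to asl (0.11), CG14013 (0.13) and CG10877 (0.17). Dbp73D had no close neighbour: CG7829 was at a distance of 1.29, unc80 at 1.62 and Klp98A at 1.69. With 2 or 4 arrays such nearness describes position among the ratios and nothing more.

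Other genes of the same steps were counted in 6 lists. On the ovary arrays 39.0% of the 2377 genes passed limma's test (adjusted p under 0.05), with 20.9% called positive and 18.0% called negative, so list counts are read against these shares. With print blocks and rows centred the share was 32.3%, with 17.8% positive and 14.5% negative. The 2 ovary arrays leave 1 residual degree of freedom.

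Of 11 initiation factors besides kra on the ovary arrays, 3 were called positive, 2 negative and 6 were not called, with a median of -0.16 against -0.14 over all genes. eIF2Bepsilon, the catalytic subunit of the exchange factor that recharges eIF2, was at 1.48 and 1.22 on the 2 arrays (mean 1.35; limma adjusted p = 2.89e-05). eIF6, which keeps the large ribosomal subunit from joining, was at -0.99 and -1.24 (mean -1.12; limma adjusted p = 5.80e-04). Neither was called with print blocks and rows centred (0.46 and -0.50; limma adjusted p = 0.120 and 0.0896), where 2 of the 11 were called positive and 1 negative. kra, chosen for its ovary ratio, lay above each of these factors under both centrings.

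Of 12 splicing regulators and hnRNP-type genes besides heph, 2 were called positive, 1 negative and 9 were not called (median -0.32). Sxl, the splicing switch of female sex determination, was at -1.13 and -1.00 (mean -1.07; limma adjusted p = 0.00105), and Rbfox1, a splicing and translation regulator of the germline, at 0.91 and 1.19 (mean 1.05; limma adjusted p = 0.00127). With print layout centred, Rbfox1 was still called at 0.77 (limma adjusted p = 0.00541) and Sxl was not at -0.28 (limma adjusted p = 0.392); 2 were then called on each side. heph, chosen for its ovary ratio, had the highest mean of the list under both centrings.

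The SMN complex and Sm core had 4 members besides rig, of which 1 was called positive and 3 were not called (median -0.07). The called gene was Gem2, which encodes the partner that binds SMN directly, at 1.11 and 1.03 on the ovary arrays (mean 1.07; limma adjusted p = 0.00101). With print layout centred Gem2 was at 1.32 (limma adjusted p = 7.88e-07), as far from 0 as rig at 1.32, and again 1 of 4 was called. Gem2 and rig were thus both positive on each array, and the other 3 members were not called under either centring. rig was chosen for its ovary ratio, so its sign beside Gem2 is described only.

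Of 5 mRNA export genes besides PCID2, 1 was called positive, 0 negative and 4 were not called (median -0.44). The called gene, barc, which encodes a splicing-associated RNA-binding protein, was at 1.11 and 0.98 (mean 1.05; limma adjusted p = 0.00132) but was not called with print layout centred (0.31; limma adjusted p = 0.342), where 0 of 5 were called, with 1 at an unadjusted p under 0.05. No other export gene on the ovary arrays lay as low as PCID2 under either centring: the lowest of the 5 was -0.57, and -0.50 with print layout centred. PCID2 was listed with earlier results of these ratios known, so its place below the others is described only.

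DEAD-box helicases on the ovary arrays numbered 4, without Dbp73D, and 2 were called negative, 0 positive and 2 were not called (median -0.62). CG8611 was at -0.98 and -1.11 (mean -1.04; limma adjusted p = 0.00136) and bel, the fly DDX3 that acts in translation, at -0.75 and -0.71 (mean -0.73; limma adjusted p = 0.0257). With print layout centred CG8611 was still called at -1.13 (limma adjusted p = 3.05e-05) and bel was not at -0.16 (limma adjusted p = 0.658). Among 12 genes of ovarian translational control 1 was called positive and 1 negative (median -0.20): twin, a deadenylase, at 0.69 (limma adjusted p = 0.0366), and plu, a partner of the PAN GU kinase, at -0.66 (limma adjusted p = 0.0444). Print layout centred, neither was called (0.27 and -0.19; limma adjusted p = 0.411 and 0.582), where limma called 0 of the 12, with 1 at an unadjusted p under 0.05 against 41.1% of all ovary genes.

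**Figure D4:**
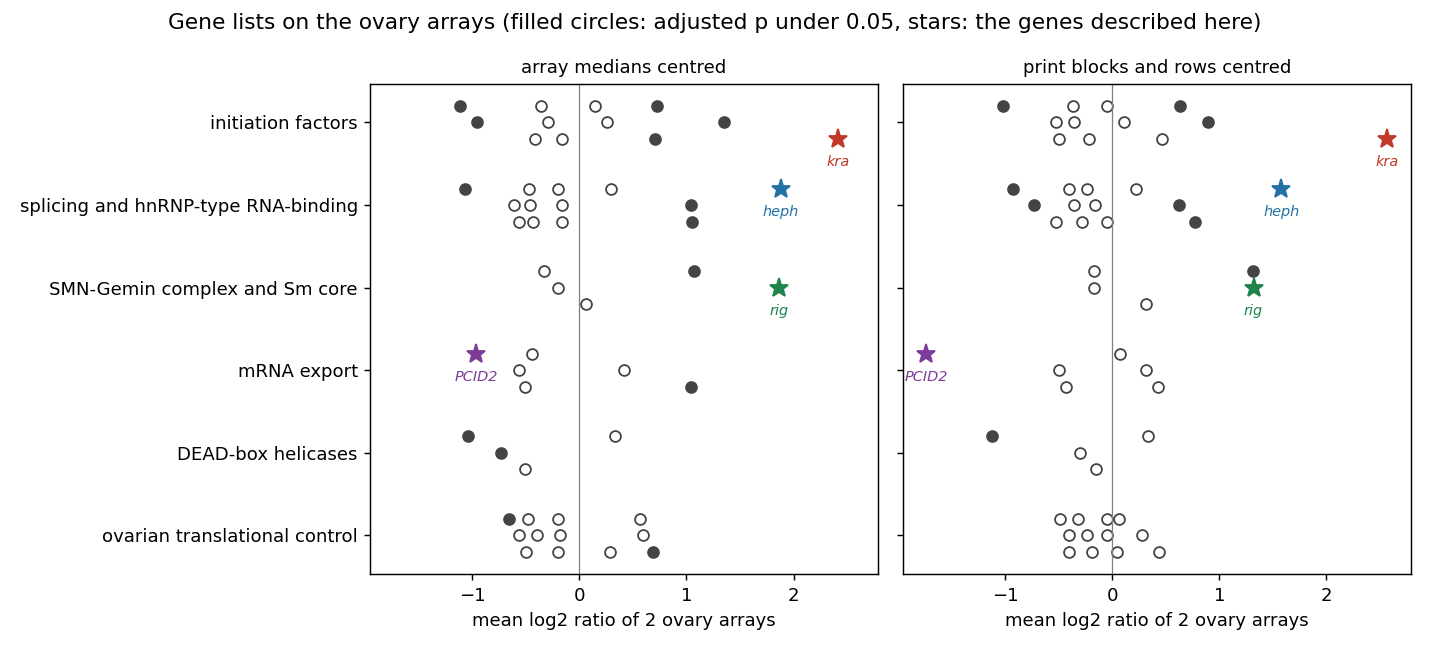
Mean log2 ratio of the 2 ovary arrays for the members of the 6 lists (rows), with array medians centred (left) and print blocks and rows centred (right); filled circles passed an adjusted p under 0.05, open circles did not, and stars mark kra, heph, rig and PCID2, which were listed with these ratios known. kra, heph and PCID2 lie outside the other members of their lists in both panels, and rig meets Gem2 at 1.32 on the right.

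In S3 cells limma called 0 genes of the 6 lists, on 30 initiation factors, 20 splicing regulators, 11 SMN and Sm genes, 19 export genes, 21 DEAD-box helicases and 17 genes of ovarian translational control besides the members. At an unadjusted p under 0.05 there were 2, 0, 1, 2, 2 and 4, against 8.09% of all 6772 genes. List medians lay between -0.03 and 0.16, against -0.02 for all genes. Among the helicases, with which Dbp73D belongs, 15 means were positive and 6 negative, and the lowest of the others was -0.46. Dbp73D was listed with its S3 ratio known, so its place below them is described only.

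The list genes with the same sign on S3 arrays 1, 3 and 4 and the largest means did not pass. eIF4A, the helicase of the cap-binding complex, was at 0.35, 0.22, 0.32 and 1.43 on arrays 1 to 4 (mean of arrays 1, 3 and 4 0.70; limma adjusted p = 0.585). thoc6, a THO complex gene of mRNA export, averaged 0.86 ± 0.23 (SD, n = 3; limma adjusted p = 0.488), SmD1, of the Sm ring, one of 0.61 ± 0.20 (SD, n = 3; limma adjusted p = 0.581), and Caper, a splicing factor gene, one of 0.50 ± 0.37 (SD, n = 3; limma adjusted p = 0.629). aub, which encodes a piRNA-binding protein of the germline, was at -0.54, -0.80, -1.49 and -1.69 (mean -1.24; limma adjusted p = 0.362), with array 2 in its deposited sign. plu, named for its ovary call, was at -1.14, -0.82, -0.95 and -0.40 in S3 (limma adjusted p = 0.531) and -0.94 and -0.38 in ovary. Of the other named list genes on both designs, eIF6, Gem2 and bel had S3 and ovary means of alike sign. Rbfox1, barc and CG8611 had means of unlike sign. How ovary and S3 signs relate is not settled, so alike signs do not show a shared direction.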

How the data were processed

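Values are the deposited log2 ratios of the 2 channels of 6 arrays; background correction, normalisation, numerator and log base are not given in the sources used here, and no signal, depth or spot quality was analysed. Medians as deposited lay between -0.02 and 0.18. Spots with 1 gene (15116 of 27648 on the S3 design, 5666 of 16896 on the ovary design) were named through the platform annotation by Entrez number, with Release 6 symbols. Array medians were subtracted and the spots of a gene averaged. limma 3.58.1 (lmFit, eBayes) in R 4.3.3 tested each mean against 0, two-sided, with Benjamini-Hochberg adjustment over all genes: S3 arrays 1, 3 and 4 (6772 genes) and ovary arrays 1 and 2 (2377 genes), apart.

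Print centring subtracted block medians (48 blocks of 576 spots, S3; 32 of 528, ovary) and, for ovary, the median of each of 22 rows pooled over blocks; this layout was read from the values. The 5 genes, the lists (213 of 219 names matched), the tests and print centring were chosen with earlier results of these data known. Named besides the members are the 3 nearest genes per member and design, and per list and design the 2 called genes with the largest absolute mean, or, with none called, the 1 largest with the same sign on every array fitted. Tools were Python 3.11.15, pandas 2.3.3, scipy 1.17.1 and matplotlib 3.10.9.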

Additional observations from a re-analysis of the deposited data

Results flagged for a closer look

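Among the 8 S3 genes examined for a lone far value, the list gene eIF4A stood out by a single array, with array signs as deposited. The gap between array 4 (1.43) and the next array (0.35) of eIF4A took 0.895 of its whole range over 4 arrays. This was above Dixon's critical value for 4 values. The array with the other dye assignment read lowest, and its sign is not settled. Turning that sign would widen the range and leave the gap as it is, so the share would be smaller. The gap was not tested with that sign turned, and the flag is given for the deposited sign only. Chance gives such a gap in about 1 of 20 groups. None of kra, PCID2 and Dbp73D had one in S3 cells.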

How the results depend on the processing

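With ovary array 2 turned, limma called 0 genes (0 at an unadjusted p under 0.05), kra was at 0.39, heph at 0.22, rig at -0.17 and PCID2 at 0.25, and eIF6 (0.13), Rbfox1 (-0.14) and CG8611 (0.064) changed side; turning sets arrays that correlate positively against each other. Print blocks and rows centred moved rig to 1.32 and PCID2 to -1.74. Rows centred each on its own 24 spots, added after seeing the data, gave 615 ovary calls against 926. There kra was at 2.27, heph at 1.18, rig at 1.64 and PCID2 at -1.82, and Gem2 at 1.19 no longer met rig. The cause was not tested. Without centring the ovary calls split into 559 positive and 284 negative, against 497 and 429. A joint fit with the S3 arrays, on 1816 genes, called 330. Without ovary replicate 1 or 2 that fit called 0 and 0 (230 and 397 unadjusted), the lone array being assumed to vary like the S3 arrays. On the array then left, kra was at 2.03 or 2.81, heph at 1.66 or 2.10, rig at 2.03 or 1.70 and PCID2 at -1.22 or -0.72 (heph and rig are not in that fit).

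S3 calls numbered 1, and 3 with 4 arrays and array 2 as deposited, 0 with it turned (505 unadjusted), 0 and 0 in these readings with print blocks centred (644 and 331), 0 with equal scale (553), and 0 to 17 without 1 array (6 without replicate 1, 17 without replicate 3, 0 without replicate 4, where 649 passed unadjusted). Dbp73D, at a mean of -0.34 from its second spot (an added choice), ranged from -1.85 to -0.89 without 1 array, kra from 0.15 to 0.37 and PCID2 from 0.01 to 0.45. kra was not called in S3 under any alternative run. No paired analysis was possible, since S3 cells and ovaries are different materials on different array designs and their replicate numbers mark no pairs. Of the 10 called ovary list genes named, 10 lost their call with array 2 turned, 8 with rows centred on their own spots, 7 with print blocks and rows centred and 2 without centring. Of the 7 that the joint fit holds, 2 lost it there and 7 without either ovary replicate. Signal over background was not analysed.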
